A study of Mus musculus with 6 samples.

Results

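The bone morphogenetic protein (BMP) receptor pathway was followed through the cells of the mouse proximal pulmonary artery (PA) by 10 genes, chosen by symbol from the 53647 genes of each count table. They were the receptors Bmpr2, Bmpr1a and Acvrl1, the co-receptor Eng, the signal carriers Smad1, Smad5 and Smad9, the target genes Id1 and Id3, and Cav1. All 10 were found, each under 1 gene identifier. The study compared single cell RNA sequencing of proximal PAs of young and old C57BL/6J wild type mice, 1 mouse per library, to ask how the cells of the vessel change with age. There were 2 young mice, both 3 months old and of either sex, and 4 old mice aged 20, 24, 27 and 28 months, of which the oldest was female and the rest were male. The labels name no other allele and no treatment. The arteries were cut up and digested with collagenase and elastase, and cells of neighbouring airway, mesothelium and lymphatic vessels were also captured.

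BMP ligands bind a complex of a type II receptor such as Bmpr2 and a type I receptor such as Bmpr1a or Acvrl1, helped in endothelium by Eng. The complex phosphorylates Smad1, Smad5 and Smad9, which then raise the transcription of target genes such as Id1 and Id3. The pathway is known above all for pulmonary arterial hypertension, a disease in which small pulmonary arteries close and whose inherited form is most often caused by loss of 1 copy of BMPR2 in humans. ACVRL1, ENG, SMAD9 and CAV1 are rarer causes of the same disease.

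Cells were barcodes with at least 500 unique molecular identifiers (UMIs, each standing for 1 captured RNA molecule), at least 300 genes and at most 20% mitochondrial UMIs. Of 15311 cells kept, 13730 fell into clusters that were named by marker genes. The libraries were uneven. They held from 6355125 to 50436562 UMIs, and the median UMIs of a passing barcode were 841 and 816 in the young male and female against 2162, 801.5, 8150 and 5465 in the old mice of 20, 24, 27 and 28 months. The young male, the young female and the 24 month mouse also shared cell barcodes in pairs, 156 between the young libraries, 131 between the young male and the 24 month mouse and 215 between the young female and the 24 month mouse, where the largest number given by chance in any pair of libraries was 2.27. Of the 678 cells concerned, 557 were airway epithelial cells, 14 were endothelial cells (ECs), 10 were smooth muscle cells (SMCs), 10 were fibroblasts (FBs), 4 were perivascular macrophages (MΦs) and 6 were other myeloid cells. Leaving these barcodes out turned the direction of 1 of the differences between age groups given below, that of Smad1 in perivascular MΦs, which moved from 0.01 to -0.00123 on the log2 scale.

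Levels are given as CPM, the UMIs of a gene scaled to 1000000 UMIs of all cells of a type in a library. Counts come from the 3′ ends of transcripts and depend on where each gene's tag lies, so a level is compared for 1 gene between cells, never between genes. The types were named by the markers below, so the levels of these markers describe the types and do not test their names. All 11 EC markers were detected in the ECs of every library (summed level 8770 to 14800 CPM), and all 11 FB markers in the FBs (29300 to 43700 CPM). In SMCs up to 2 of 9 markers were at 0 in a library (10300 to 48300 CPM). The order of levels across cell types is a description without a test, because the types were defined in the same cells. Of 13 types with at least 10 cells in a library, the text gives those of the vessel wall and its surroundings first and leaves out others between them, mainly blood cells.

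Bmpr2, the type II receptor at the head of the pathway, was highest in ECs, with 593.6 ± 155.4 CPM (mean ± SD over libraries, n = 6). It stood at 601 and 479 CPM in the young male and female and at 345, 749, 722 and 665 CPM in the old mice of 20, 24, 27 and 28 months. The 20 month mouse was the lowest of the 6, and the others lay within 479 to 749 CPM. Lymphatic ECs followed at 347.0 CPM (n = 2), then FBs at 278.5 ± 134.5 CPM (n = 6), erythroid cells at 228.8 CPM (n = 2) and SMCs at 207.8 ± 107.6 CPM (n = 6). The erythroid mean joins 139.6 and 318.1 CPM and is loose, since the 24 month mouse gave 27 erythroid cells with 22009 UMIs. Perivascular MΦs held 79.32 CPM, airway epithelial cells 75.43 CPM and B cells 8.477 CPM. Each type overlapped the next one down in its range over libraries, so neighbours in this order were not apart beyond the spread.

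Bmpr1a, a type I receptor of broad distribution, had another order. Mesothelial cells, the lining of body cavities, came first at 281.4 ± 83 CPM (n = 5), followed by SMCs at 266.9 ± 126.4 CPM and ECs at 142.3 ± 63.75 CPM (n = 6 each). Their ranges overlapped, from 184 to 359 CPM in mesothelial cells and from 100.2 to 401 CPM in SMCs. Lymphatic ECs closed the list at 10.1 CPM, below plasma cells at 17.39 CPM, and these ranges overlapped too.

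Acvrl1, the type I receptor best known from endothelium, averaged 201.8 ± 39.9 CPM in ECs. Its 6 libraries ran closely together, at 212 and 159.6 CPM in the young male and female and at 226, 171, 264 and 177 CPM in the old mice of 20, 24, 27 and 28 months. Lymphatic ECs at 163.5 CPM and FBs at 136.5 ± 78.65 CPM (n = 6) came next and overlapped with ECs. The lowest FB library (74.46 CPM) lay above the highest myeloid library (69.32 CPM), the next type by its mean, though 1 of 2 neutrophil libraries further down reached 84.24 CPM. SMCs held 25.48 ± 20.11 CPM.

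Eng was the member most set apart by endothelium. ECs held 723.5 ± 144.4 CPM (n = 6, range 548 to 971 CPM) and lymphatic ECs 536.1 CPM (527 to 545 CPM), and neither range overlapped that of the next type. FBs stood at 65.14 ± 26.45 CPM, SMCs at 14.74 ± 16.21 CPM and airway epithelial cells at 1.716 CPM. With every cell thinned to 500 UMIs, 26.2% of ECs had an Eng UMI (mean of 6 libraries, 20.7% to 29.6%) against 0.0952% of airway epithelial cells. Without thinning these shares were 50.6% and 1.18%, at median depths of 618 to 2883 UMIs in ECs and 1219 to 9012 UMIs in airway epithelial cells of the 6 libraries.

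**Figure D1:**
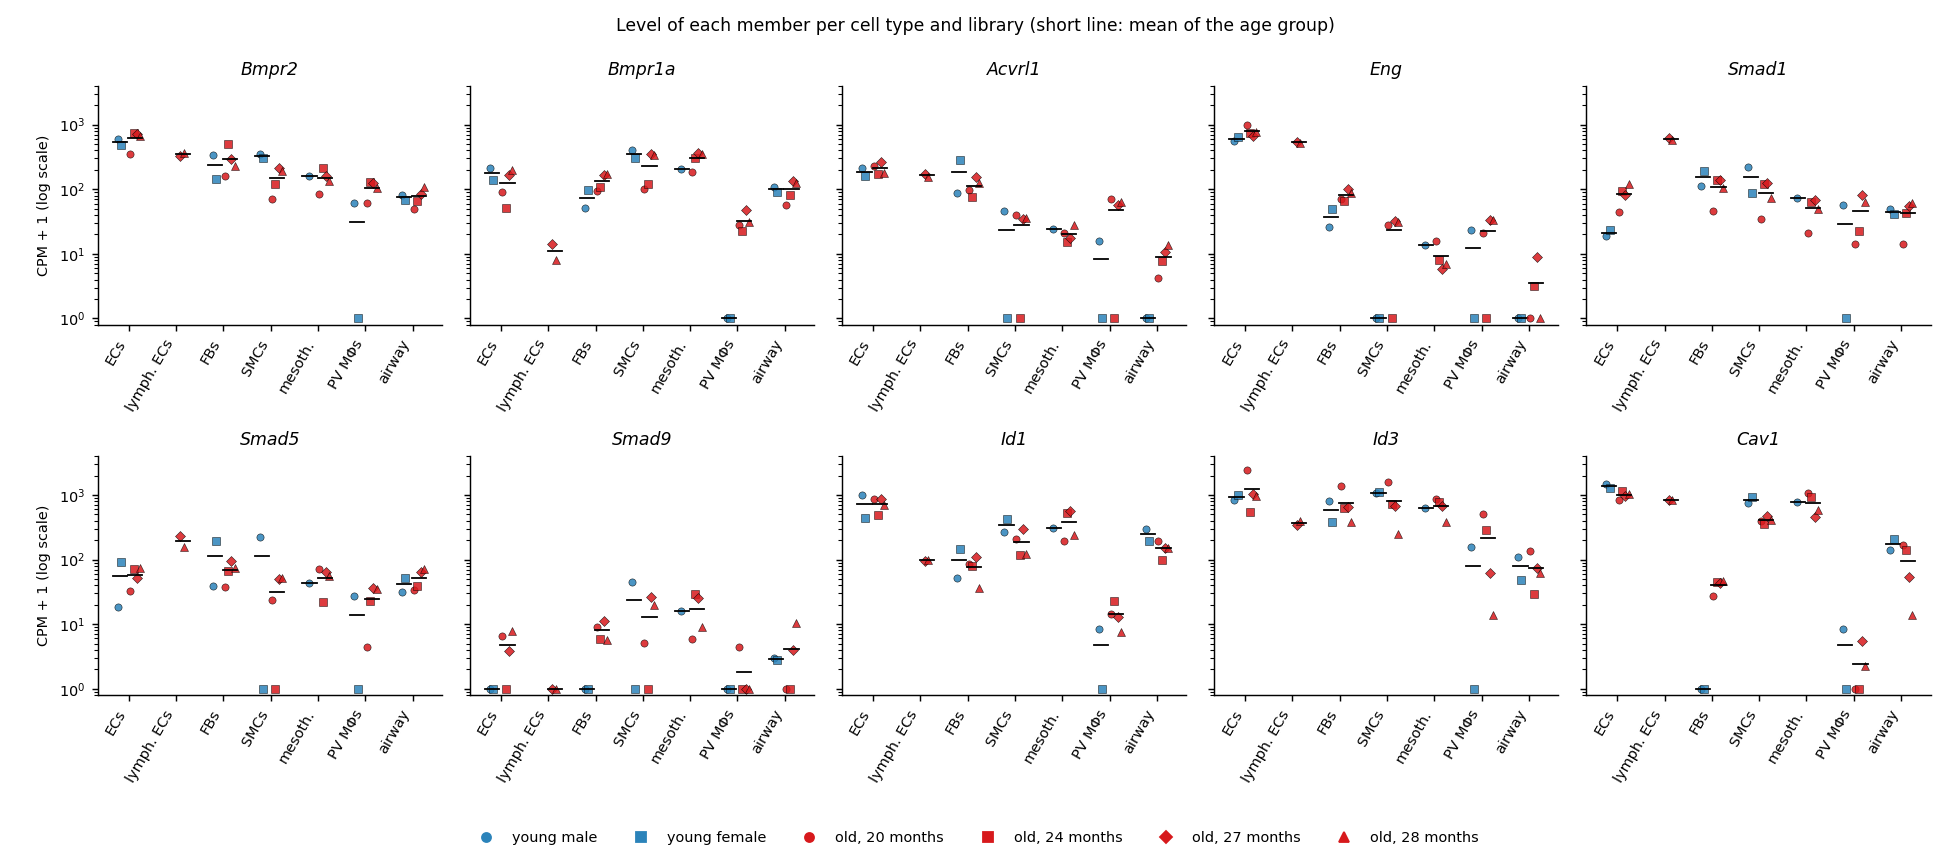
Level of each member (CPM + 1, log scale) in blood and lymphatic ECs, FBs, SMCs, mesothelial cells, perivascular (PV) MΦs and airway epithelial cells, with 1 point per library of at least 10 cells, coloured by age group, and a short line at the mean of the age group. Eng points of ECs lie between 548 and 971 CPM, above all points of the other types drawn, while Smad1 is highest in lymphatic ECs at 583 and 618 CPM.

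Among the Smads, the proteins that carry the signal to the nucleus, Smad1 and Smad5 both had their highest level in lymphatic ECs. Smad1 stood at 600.3 CPM there (583 and 618 CPM), with no overlap with FBs at 121.1 ± 48.35 CPM. SMCs held 109.3 ± 64.57 CPM and ECs 62.81 ± 40.86 CPM (n = 6 each). Smad5 followed the same first steps, with 194.6 CPM in lymphatic ECs, 82.81 ± 57.28 CPM in FBs, 57.67 ± 83.84 CPM in SMCs and 55.85 ± 27.52 CPM in ECs, and each range overlapped the next, while those of lymphatic ECs (157 to 233 CPM) and ECs (17.7 to 91.2 CPM) did not meet. The SMC value of Smad5 rests on thin libraries, since the young male stood at 223 CPM while the young female and the 24 month mouse were at 0.

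Smad9 was sparse everywhere. Its highest means were 16.11 ± 10.07 CPM in mesothelial cells (n = 5) and 15.4 ± 17.61 CPM in SMCs (n = 6). In SMCs nearly all of its counts came from old mice, with 346 counts at 27 months (24.95 CPM) and 111 at 28 months (18.8 CPM). The young SMCs held 1 count in 45892 UMIs, so the ratio of old to young pooled levels was 1.04 with a counting interval of 0.186 to 41.2 (exact, 95%). No lymphatic EC had a Smad9 UMI, in 24 cells of the 27 month mouse (0 of 150485 UMIs, upper limit 24.5 CPM) and in 65 cells of the 28 month mouse (0 of 434300 UMIs, upper limit 8.49 CPM).

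Id1 and Id3 encode inhibitors of DNA binding, small proteins that hold back other transcription factors. Id1 was highest in ECs at 726.9 ± 226.7 CPM (n = 6), then in mesothelial cells at 366.0 ± 170.5 CPM (n = 5) and SMCs at 239.1 ± 117.4 CPM (n = 6). FBs stood at 83.22 ± 39.0 CPM and perivascular MΦs at 10.21 CPM. Id3 was less selective. ECs held 1134 ± 658.6 CPM, SMCs 900.3 ± 459.3 CPM, FBs 702.9 ± 365.0 CPM and mesothelial cells 663.0 ± 186.0 CPM, and each of these overlapped the next. The 20 month mouse had the highest Id3 level of the 6 libraries in ECs (2431 CPM), SMCs (1586 CPM) and FBs (1369 CPM). Id3 was also highest in that library among barcodes of fewer than 100 UMIs, which hold free RNA, at 473 CPM against 56.1 to 314 CPM in the other 5. Its part in the Id3 levels was not tested.

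Cav1 encodes the coat protein of caveolae, small pits of the cell membrane. ECs held 1129 ± 230.7 CPM (n = 6), lymphatic ECs 835.5 CPM (n = 2), mesothelial cells 760.3 ± 250.1 CPM (n = 5) and SMCs 552.7 ± 238.5 CPM (n = 6). FBs were far lower at 26.26 ± 21.44 CPM. In FBs thinned to 500 UMIs, 1.57% of cells had a Cav1 UMI against 6.25% of airway epithelial cells, and the FB level was below that of free RNA in every library (65.8 to 214 CPM), so FB Cav1 could not be told from background.

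Within endothelium, lymphatic ECs were set against blood ECs of the same mice. Lymphatic ECs were captured in numbers in the 27 and 28 month mice only (24 and 65 cells), so both types are compared there, with exact 95% Poisson intervals that cover counting error only. No test across these 2 mice was run, since the types were defined in the same cells. The other libraries held fewer than 10 lymphatic ECs, among them 1 of the young female and 0 of the young male.

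Bmpr1a was at 13.3 CPM in lymphatic ECs of the 27 month mouse (2 counts, 1.61 to 48.0 CPM) and at 166 CPM in its blood ECs (143 to 192 CPM). In the 28 month mouse the values were 6.91 CPM (3 counts, 1.42 to 20.2 CPM) and 201 CPM (184 to 218 CPM). The lymphatic side was lower in both mice and the intervals did not meet. Bmpr2 was lower as well, at 326 and 368 CPM in lymphatic ECs against 722 and 665 CPM in blood ECs of the 27 and 28 month mice. Low levels of these 2 receptors were not particular to lymphatic ECs. The blood EC cluster led by Gpihbp1 and Tcf15, described below, held 9.46 and 17.7 CPM of Bmpr1a in these mice. Its Bmpr2 level was 312 and 331 CPM. Acvrl1 was at 173 and 154 CPM against 264 and 177 CPM, and these intervals overlapped in both mice (113 to 253 and 234 to 297 CPM at 27 months, 120 to 196 and 162 to 193 CPM at 28 months). Eng was at 545 and 527 CPM in lymphatic ECs against 671 and 763 CPM, with overlapping intervals in the 27 month mouse (433 to 676 CPM and 623 to 722 CPM).

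The Smads went the other way. Smad1 was at 618 CPM (499 to 757 CPM) in lymphatic and 81.6 CPM (65.4 to 101 CPM) in blood ECs of the 27 month mouse. In the 28 month mouse it was at 583 CPM (513 to 659 CPM) and 118 CPM (106 to 132 CPM). Smad5 was at 233 and 157 CPM in lymphatic against 51.0 and 71.8 CPM in blood ECs of these mice. Thus lymphatic ECs had the higher level of both Smads in both mice, with no overlap of intervals.

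Of the targets, Id1 was at 93 and 99 CPM in lymphatic ECs and at 875 and 708 CPM in blood ECs of the 27 and 28 month mice. Id3 was at 346 and 401 CPM against 1032 and 964 CPM. Both were lower on the lymphatic side in both mice with separate intervals. Cav1, at 831 and 840.4 CPM against 959.8 and 1047 CPM, was closer, and its intervals overlapped in the 27 month mouse (691 to 990 CPM and 902 to 1020 CPM).

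**Figure D2:**
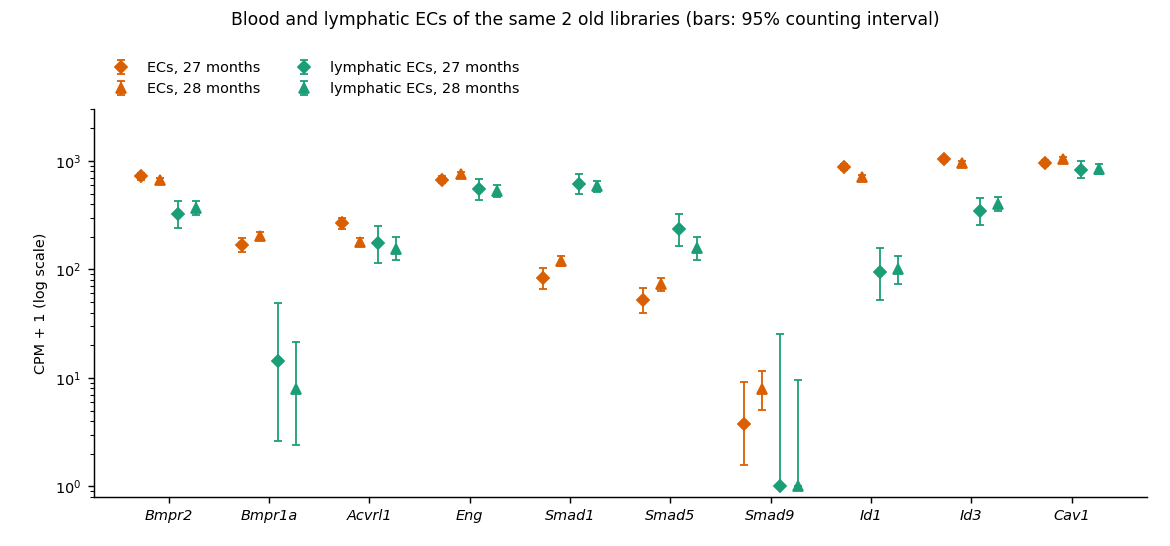
Level of each member (CPM + 1, log scale) in blood and lymphatic ECs of the 27 and 28 month mice, with 1 point per type and mouse and bars for the 95% counting interval. Smad1 and Smad5 lie higher in lymphatic ECs of both mice, while Bmpr1a, Bmpr2, Id1 and Id3 lie lower.

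Blood ECs themselves formed 4 clusters, named here by their leading genes. The members were left out of the genes used for clustering, but other genes of the same cells defined the clusters, so the values below carry no test. The cluster led by Edn1 and Vcam1 held 80 of 82 ECs of the young male, 59 of 62 of the young female, 665 of 669 at 20 months and 195 of 198 at 24 months, but 41 of 294 at 27 months and 79 of 797 at 28 months. The clusters led by Ldb2 and Acer2, by Gpihbp1 and Tcf15, and by Epha7 and Fgf14 came mostly from the 27 and 28 month mice, with 185 and 446 cells, 28 and 176 cells, and 40 and 96 cells.

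In these 2 mice the Gpihbp1 and Tcf15 cluster stood apart for Bmpr1a and Bmpr2. Its Bmpr1a level was 9.46 CPM at 27 months (1 count) and 17.7 CPM at 28 months (8 counts), against 160 to 289 CPM in the other 3 clusters. Bmpr2 was at 312 and 331 CPM, below 479.8 to 802 CPM elsewhere. The same cluster had the highest Smad1 level (237 and 229.6 CPM) and the highest Cav1 level (1854 and 1641 CPM) in both mice. Smad1 was at 126 and 206 CPM in the Epha7 and Fgf14 cluster, 54.9 and 65.9 CPM in the Ldb2 and Acer2 cluster and 26.7 and 28.3 CPM in the Edn1 and Vcam1 cluster. Eng was highest in the Epha7 and Fgf14 cluster (1044 and 1801 CPM) and lowest in the Ldb2 and Acer2 and the Edn1 and Vcam1 clusters (449.8 to 589 CPM). Id1 was lowest in the Epha7 and Fgf14 cluster in both mice (568 and 319 CPM). The highest cluster differed, the one led by Gpihbp1 and Tcf15 at 28 months (1665 CPM) and the one led by Edn1 and Vcam1 at 27 months (986 CPM, against 709.6 CPM in the Gpihbp1 and Tcf15 cluster).

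**Figure D3:**
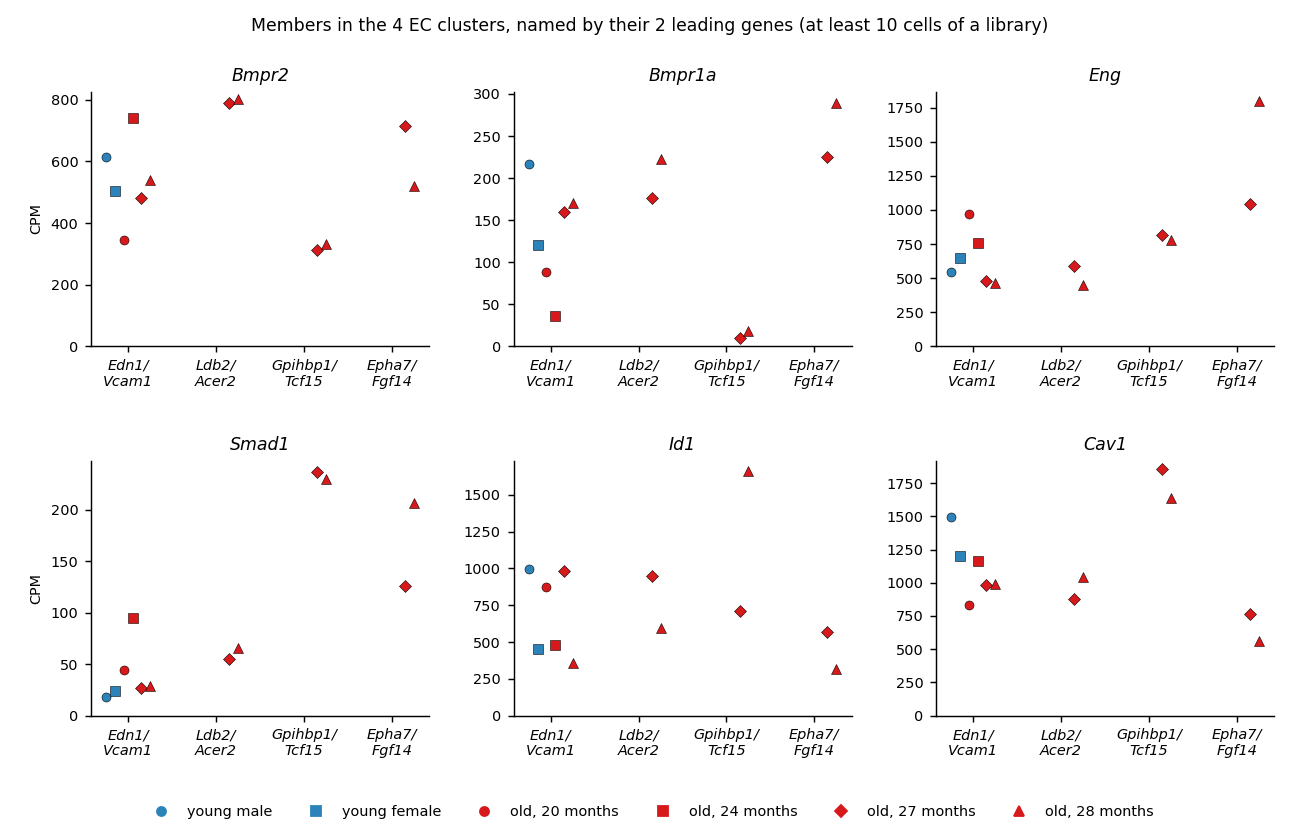
Level in CPM of Bmpr2, Bmpr1a, Eng, Smad1, Id1 and Cav1 in the 4 blood EC clusters, each named by its leading genes, with 1 point per library of at least 10 cells in the cluster. Bmpr1a is near 0 in the Gpihbp1/Tcf15 cluster (9.46 and 17.7 CPM), where Smad1 and Cav1 are at their highest.

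The study's main question, what changes with age, was then asked of each member in FBs, SMCs, ECs, perivascular MΦs and other myeloid cells, with edgeR's quasi-likelihood test on counts summed per library. Nothing in the labels says more of the libraries than that each is another mouse, and the p-values measure the spread between them. Both young libraries belong to the set that shares barcodes, with the 24 month mouse as its only old library. That set also has the lowest depth, at medians of 801.5 to 841 UMIs against 2162 to 8150 in the other old mice. Age is thus largely confounded with set and depth, and the p-values cannot tell them apart. Genes were tested if more than 5% of cells had a count in at least 3 libraries, which admitted 9 of 10 members in FBs, SMCs and ECs, 5 in perivascular MΦs and 3 in myeloid cells. Smad9 was tested in none. In none of the 35 member and cell type pairs did the adjusted p (Benjamini-Hochberg over all genes tested) fall under 0.05, and the lowest was 0.169. At an unadjusted p under 0.05 there were 4 pairs with edgeR. All 4 were among the 7 pairs that passed the gene filter through old libraries only, which with 4 old and 2 young libraries admits genes that are high in old mice more readily. DESeq2 called 0 pairs too, with 8 at an unadjusted p under 0.05, and gave no adjusted p for 16 of the 35. In simulated data of the same depth, edgeR recovered 85.5% of genes changed 16-fold in FBs, 48% in SMCs, 95% in ECs, 67.5% in perivascular MΦs and 71.5% in myeloid cells. Of genes changed 4-fold it recovered 11.5%, 0.5%, 6%, 2% and 0% in the same order. Unchanged genes were called too. At 16-fold there were 30, 2, 9, 8 and 27 such false calls beside 171, 96, 190, 135 and 143 recovered genes. At 4-fold there were 5, 0, 1, 2 and 2 beside 23, 1, 12, 4 and 0.

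In ECs the member that differed most was Smad1. It stood at 17.7 and 22.8 CPM in the young male and female, 1 count each, and at 43.6, 92.7, 81.6 and 118 CPM in the old mice of 20, 24, 27 and 28 months (72, 13, 88 and 330 counts). All 4 old mice were above both young mice. The fitted log2 fold change, old over young, was 2.07 ± 0.84 (SE) with an unadjusted p of 0.027 and an adjusted p of 0.836, which ranged from 0.356 to 1.0 over all fits tried. Smad1 passed the gene filter through old libraries only, so a higher old level was favoured by its admission to the test. The ratio of pooled levels was 4.46 with a counting interval of 1.23 to 37.0. That interval covers counting error only and leaves out the spread between mice. Within the cluster led by Edn1 and Vcam1, which all libraries share, the old mice were at 43.8, 94.3, 26.7 and 28.3 CPM (72, 13, 1 and 2 counts) against 18.1 and 24.0 CPM (1 count each) in the young. There the 27 and 28 month mice rested on 1 and 2 counts and lay close to the young mice. Lymphatic EC markers overlapped between the groups, with a summed level of 323 to 927 CPM in old and 424 and 981 CPM in young ECs.

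Eng was also higher in all 4 old mice, at 971, 749, 671 and 763 CPM for 20, 24, 27 and 28 months against 548 and 638 CPM in the young male and female. Its log2 fold change was 0.48 ± 0.49 (adjusted p 0.942), and the groups overlapped within the Edn1 and Vcam1 cluster (479.8 and 467 CPM at 27 and 28 months). Cav1 had the opposite order, with 1468 and 1299.8 CPM in the young male and female and 836, 1162, 959.8 and 1047 CPM in the old mice. Every old mouse was below both young mice, also within the Edn1 and Vcam1 cluster (836 to 1168 CPM against 1499 and 1198 CPM). The log2 fold change of -0.42 ± 0.47 (adjusted p 0.953) turned to 0.23 with DESeq2, whose size factors moved the median of all genes from 0.179 to 0.886, and relative to that median Cav1 was at -0.60 with edgeR and -0.66 with DESeq2.

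These counts were close to those of all genes. In ECs 0% of 5872 genes passed the adjusted threshold with edgeR and 5 genes did with DESeq2. An unadjusted p under 0.05 was reached by 5.91% of genes and by 1 of 9 members, Smad1. Old libraries lay above young ones without overlap for 12.1% of genes and for 2 members, and below for 7.9% of genes and 1 member. The remaining members gave log2 fold changes from -0.44 ± 0.56 (Bmpr1a) to 0.53 ± 0.63 (Id3), with Id1 at 0.07 ± 0.52 and Bmpr2 at 0.22 ± 0.50. The median over the tested members was 0.21, beside 0.179 for all genes.

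**Figure D4:**
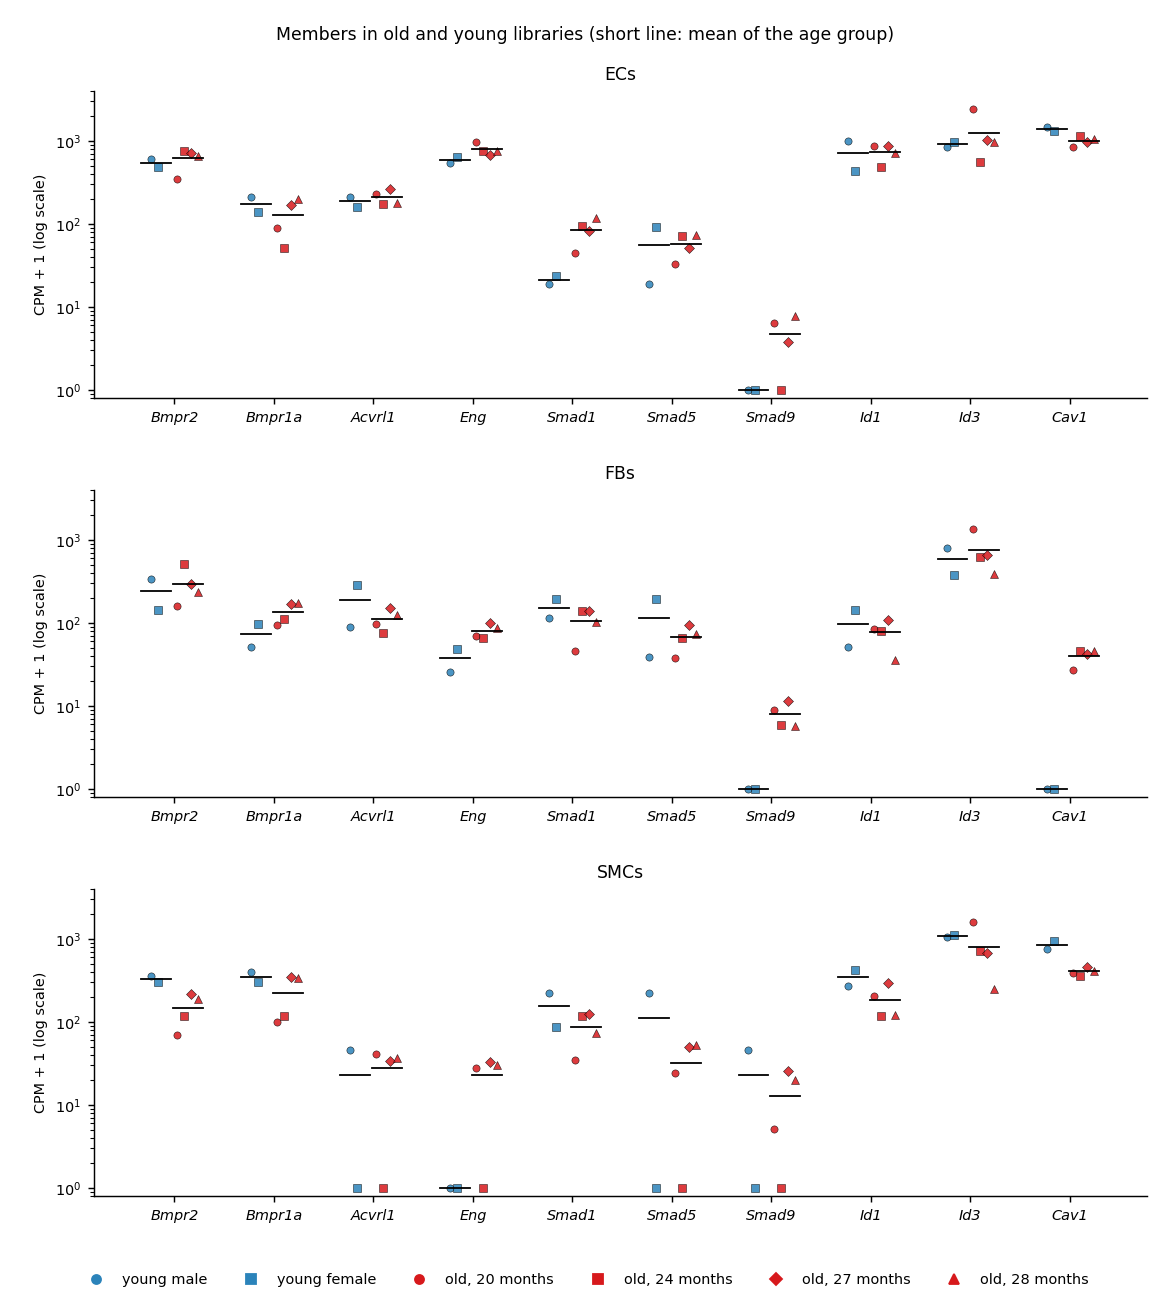
Level of each member (CPM + 1, log scale) in ECs, FBs and SMCs, with 1 point per library coloured by age group and a short line at the mean of each group. In ECs the old points of Smad1 lie at 43.6 to 118 CPM above the young ones at 17.7 and 22.8 CPM, while in SMCs the old points of Bmpr2 and Cav1 lie below the young ones, a direction that turned in the fit with DESeq2.

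In FBs, Eng stood at 25 and 47.8 CPM in the young male and female (2 counts and 1 count) and at 68.7, 64.5, 98.9 and 85.9 CPM in the old mice of 20, 24, 27 and 28 months. The old mice were all higher, with a pooled ratio of 2.99 and a counting interval of 1.02 to 14.5, which leaves out the spread between mice. The fit gave a log2 fold change of 1.39 ± 0.72 (unadjusted p 0.0711, adjusted p 0.817), for a gene that passed the filter through old libraries only. Cav1 had no count in young FBs (0 of 100920 UMIs, where 3 counts would be 29.7 CPM) and stood at 26.4, 44.7, 41.7 and 44.7 CPM in the old mice. It was at least 1.44-fold higher in old FBs against that floor, with an unadjusted p of 0.00815 and an adjusted p of 0.704 (0.185 to 0.917 over all fits), and it too was tested only because of its old libraries. As said above, these levels are under those of free RNA. Summed SMC markers in FBs were 148, 94.3, 360 and 248 CPM in the same old mice and 37.5 and 95.6 CPM in the young ones, and pericyte markers 139 to 458 CPM in old and 75.0 and 95.6 CPM in young mice. EC markers were at 75.7 to 336 CPM in old and 150.0 and 239 CPM in young FBs, and erythroid markers reached 26100.0 CPM at 24 months and 8650.0 CPM at 28 months against 21.0 to 382 CPM elsewhere. The part of such RNA in the Cav1 and Eng values was not tested.

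Bmpr1a in FBs had a log2 fold change of 1.13 ± 0.61 (adjusted p 0.817), with 50.0 and 95.6 CPM in the young male and female and 92.5, 109, 168 and 172 CPM in the old mice of 20, 24, 27 and 28 months. The 20 month mouse lay between the young values, so the groups overlapped. The other 6 tested members of FBs ran from -0.39 ± 0.55 (Acvrl1) to 0.36 ± 0.58 (Id3). Among all genes tested in FBs, 0.0445% passed the adjusted threshold and 6.29% had an unadjusted p under 0.05, against 0 and 1 of 9 members. Old libraries were higher without overlap for 16.9% of genes and 2 members and lower for 7.59% of genes and 0 members. The median of the members was 0.213 and that of all genes 0.197.

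In SMCs 7 of the 9 tested members had a log2 fold change below 0 with edgeR, none past the test, and all 7 turned above 0 with DESeq2. Of all genes tested in SMCs, 68.3% were above 0 with edgeR, and their median was 0.463 with edgeR and 2.09 with DESeq2. Bmpr2 was at 356 and 299 CPM in the young male and female (8 and 7 counts) and at 68.9, 119, 215 and 189 CPM in the old mice of 20, 24, 27 and 28 months. All old values were below the young ones. The log2 fold change of -0.82 ± 0.83 (adjusted p 0.918) became 0.97 with DESeq2, whose median over all genes was 2.09 against 0.463, and relative to the median the values were -1.28 with edgeR and -1.12 with DESeq2. Cav1 showed the same picture, at 757 and 939 CPM in the young and 388, 356, 464 and 412 CPM in the old mice. Its log2 fold change was -0.80 ± 0.85 (adjusted p 0.921), or 0.86 with DESeq2, and relative to the median -1.26 and -1.23.

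The 24 month mouse gave 10 SMCs and 8428 UMIs, and its 3 Cav1 counts and 1 Bmpr2 count carry little weight. SMCs also differed in kind between libraries. Almost all SMCs of the 20 month mouse (147 of 153) formed a cluster of their own led by Snord13, and cardiomyocyte markers summed to 1050, 6290, 810 and 725 CPM in the old mice and 5070 and 811 CPM in the young. The cluster led by Tcap and Myl9 held at least 10 cells of all but the 20 month mouse. In it Bmpr2 was at 288 and 307 CPM in the young and 119, 120.2 and 119 CPM in the mice of 24, 27 and 28 months, and Cav1 at 768 and 922 CPM against 356, 513 and 461 CPM. Old values were all lower there. This is hardly a second comparison, since the cluster held 24 of 25 and 33 of 34 young SMCs and all 10 of the 24 month mouse. Only the values at 27 and 28 months (196 and 132 cells) differ much from those above. Bmpr2 rests on 6 and 7 counts in the young and 1 count at 24 months.

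The share of SMC genes past the adjusted threshold was 0.111%, and 6.03% had an unadjusted p under 0.05, against 0 of 9 members for both. Old libraries were lower without overlap for 8.38% of genes and 2 members, and higher for 8.25% of genes and 0 members. The median of the members was -0.504 and that of all genes 0.463. Eng and Acvrl1 had hardly any counts in young SMCs. Eng had 0 counts in 45892 young UMIs and 27.1 to 31.7 CPM in 3 old mice, all under the floor of 65.4 CPM that 3 young counts would make, so no fold is given. Acvrl1 had 1 young count, with a ratio of 1.56 and a counting interval of 0.28 to 61.8.

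In perivascular MΦs, tissue macrophages along the vessel, Bmpr1a had no count in young cells (0 of 274481 UMIs, floor 10.9 CPM). The old mice of 20, 24, 27 and 28 months stood at 26.9, 21.7, 46.9 and 30.05 CPM (8, 1, 63 and 72 counts), all above the young mice and at least 3.23-fold above the floor when pooled. This was the smallest p of any member, 0.000795 unadjusted and 0.169 adjusted, with adjusted values from 0.0512 to 1.0 over all fits, but with no young count the gene could enter the test through old libraries alone. Without the young male, which held 269 young cells beside 11 of the young female, the unadjusted p was 0.286. Free RNA held 58.6 and 40.6 CPM of Bmpr1a in the young male and female and 69.3, 30.7, 77.7 and 62.6 CPM in the old mice, above the MΦ levels in every library. Its part in the MΦ levels was not tested.

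Acvrl1 in these cells was at 14.9 and 0 CPM in the young male and female and at 70.7, 0, 55.1 and 63.0 CPM in the old mice of 20, 24, 27 and 28 months. The groups overlapped at 0, where the young female and the 24 month mouse had 11 and 44 cells. Its log2 fold change was 1.96 ± 0.92 (unadjusted p 0.0342, adjusted p 0.606, range 0.362 to 1.0), again for a gene admitted by old libraries only, and it turned to -6.46 with the set of barcode-sharing libraries as a covariate. Bmpr2 was at 59.7 and 0 CPM in the young and 60.6, 130.5, 123 and 102 CPM in the old mice, which did not overlap, with a log2 fold change of 0.98 ± 0.86 (adjusted p 0.906). Id3 differed more between mice than between ages, from 12.9 CPM at 28 months to 505 CPM at 20 months. Of all genes tested, 0.13% passed the adjusted threshold and 7.61% had an unadjusted p under 0.05, against 0 and 2 of 5 members. Old libraries were higher without overlap for 12.7% of genes and 2 members and lower for 5.78% of genes and 0 members. The median of the tested members was 0.976 and that of all genes 0.272.

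In other myeloid cells only Bmpr1a, Acvrl1 and Id3 could be tested, and the 20 month mouse was left out with 9 cells. Id3 had a log2 fold change of -0.66, Bmpr1a of 0.62 and Acvrl1 of 0.43, each with an adjusted p of 1.0 after rounding. The adjusted threshold was passed by 0% of genes with edgeR and by 0 genes with DESeq2, and 3.42% had an unadjusted p under 0.05, against 0 of 3 members. The groups were apart with old higher for 13.8% and with old lower for 9.71% of genes, and for 0 of the 3 members tested. Members that were not tested were apart with old higher for Bmpr2, Smad1 and Cav1. Their counts were few, with 92 in old and 7 in young cells for Bmpr2, 28 and 3 for Smad1, and 7 and 0 for Cav1. The median of the tested members was 0.426 and that of all genes 0.269.

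**Figure D5:**
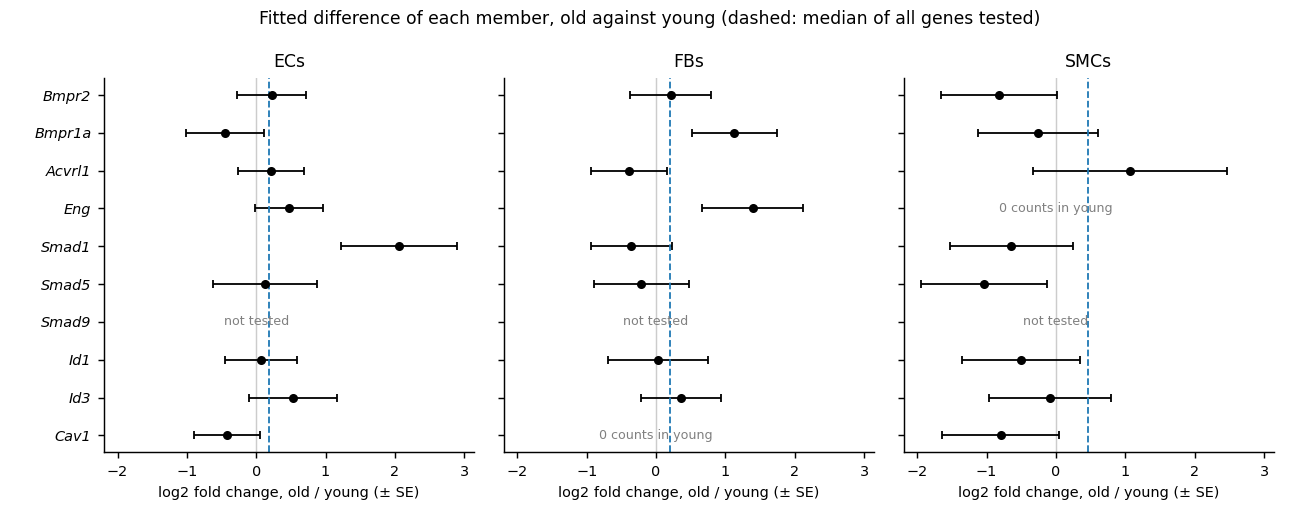
Fitted log2 fold change, old over young, of each member in ECs, FBs and SMCs (edgeR, points with SE bars), with a dashed line at the median of all genes tested in that type. Smad1 in ECs lies at 2.07, and members not tested or without counts in young cells carry a label in place of a point.

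Around these members, 74 further genes were followed in 7 lists, not all of them genes of the pathway. The lists held ligands (activin genes such as Inhba among them), other receptors, antagonists, inhibitors inside the cell and other targets. Beside these stood 7 caveola genes and 12 other genes of heritable pulmonary arterial hypertension, such as Klf2. Between 12 (myeloid cells) and 38 (FBs and SMCs) of them were tested in a cell type, and 0 passed the adjusted threshold in any of the 5 types with edgeR. The most abundant ligands in ECs were Bmp6, at a mean of 913 CPM in old (400 to 1620 CPM) and 438 CPM in young mice (433 to 442 CPM), and Bmp4, at 540 and 511 CPM. Bmp6 had a log2 fold change of 1.05 ± 0.61 (adjusted p 0.901). Of the other receptors, Acvr1, a type I receptor, averaged 257 CPM in old and 118 CPM in young ECs (1.20 ± 0.59, adjusted p 0.854). Among inhibitors inside the cell, Fkbp1a, which binds type I receptors and keeps them silent, averaged 473 CPM in old ECs (371 to 577 CPM) and 893 CPM in young ECs (707 and 1080.0 CPM). Its ranges did not overlap, but the log2 fold change of -0.87 ± 0.47 had an adjusted p of 0.877. Cavin1, which builds caveolae with Cav1, was likewise apart, at 726 to 875 CPM in old and 1090.0 and 1260.0 CPM in young ECs (-0.55 ± 0.46, adjusted p 0.918). Among all genes tested in ECs, 7.9% lay lower in old libraries without overlap. The listed genes that lay apart were not counted.

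In FBs the leading antagonist was Fstl1, a secreted follistatin-like protein, at 2100.0 CPM in old and 2940.0 CPM in young mice (-0.35 ± 0.41, adjusted p 0.937). In SMCs the ligand gene Inhba averaged 113 CPM in old and 22.3 CPM in young mice (2.66 ± 1.40, adjusted p 0.753). Its young mean rests on hardly any counts and is under the floor of 65.4 CPM, and Inhba passed the gene filter through old libraries only. The target Id2 averaged 337 CPM in old (206 to 475 CPM) and 697 CPM in young mice (668 and 726 CPM), at -0.94 ± 0.85 (adjusted p 0.893). Id2 was lower in old libraries without overlap, as were 8.38% of all genes tested in SMCs. An unadjusted p under 0.05 was met by 2 of the 38 listed genes tested in FBs, 2 of 38 in SMCs, 1 of 36 in ECs and 0 in both macrophage and myeloid cells. Among all genes tested it was met by 6.29% in FBs, 6.03% in SMCs and 5.91% in ECs. In perivascular MΦs and myeloid cells the shares were 7.61% and 3.42%. The listed genes that met it are named for that p, after their values were seen. In FBs they were Smad6, an inhibitory Smad (55.5 CPM in old and 6.25 CPM in young, adjusted p 0.790), and Cavin2 (128 and 42.6 CPM, adjusted p 0.704). In SMCs they were Klf2, a flow-induced transcription factor (184 and 44.5 CPM), and Smurf1, a ligase that degrades Smads (31.9 CPM and no young count), both with an adjusted p of 0.753. In ECs it was Msx1, a homeobox target of BMP (29.1 CPM and no young count, adjusted p 0.836). Smurf1 and Msx1 could enter the test through old libraries alone, and their old levels are under the floors of 65.4 and 29.9 CPM that 3 young counts would make. The young means of Smad6 and Cavin2 rest on so few counts that both also passed the gene filter through old libraries only. The young mean of Klf2 is under the SMC floor of 65.4 CPM too.

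Likeness between genes was measured over the 59 sums of a library and a cell type, as Pearson's r of log2(CPM + 1) among 13157 genes. These sums share libraries and cell types and differ in depth, so the values are descriptions. Cav1 was most like Tm4sf1 (r = 0.901) and Clu (0.890), Bmpr2 like Nfia (0.883), Kif13a (0.882) and Acvr1 (0.879), and Eng like Ramp2 (0.830), and also like Tek (0.814), a receptor of angiopoietins in endothelium. Smad1 was most like Kif13a (0.846), Id1 like Agrn (0.824), Id3 like Htra1 (0.796), Acvrl1 like Arhgef40 (0.833), Bmpr1a like Gstm1 (0.794) and Smad5 like Tsnax (0.853). Among the members themselves, Bmpr2 and Smad1 (0.826), Acvrl1 and Eng (0.774) and Id1 and Cav1 (0.769) were the pairs most alike, and Smad5 and Id3 (0.263) the least.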

How the data were processed

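Proximal PAs of 2 young and 4 old mice were profiled with droplets (10x Genomics 3′ v3.1 chemistry). A further young male mouse of the study was not analysed here. Per the labels and the methods, the authors trimmed reads with Cutadapt, aligned them to GRCm38.p6 with STARsolo and deposited raw UMI counts for every barcode, with no normalization. Versions of these tools are not given in the sources used here. Gene identifiers did not all match the annotation at hand, so symbols of the files are used and no coordinates are given.

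Doublets (311) were removed per library with scrublet, or as the top 0.8% per 1000 barcodes where it marked under 0.5%. Cells were clustered in scanpy 1.11.5 without the members (2000 variable genes, 40 components, 15 neighbours, Leiden resolution 1.0, leidenalg 0.10.2) and a cluster was named where over 40% of a type's markers were raised, or 45% within myeloid cells. A cluster led by Tnnt2 was set aside from SMCs, and a subcluster led by Lpl and Ear2 from perivascular MΦs. Counts were summed per library and type with at least 10 cells and tested with edgeR 4.0.16 (TMM, robust quasi-likelihood, R 4.3.3). The SE of a log2 fold change was worked back from the test, as its size divided by the square root of the F statistic. DESeq2 1.42.0 was an alternative, beside other filters, scaling, thinning to 500 UMIs, doublets kept, the set of barcode-sharing libraries as a covariate and each library left out. Where a group had 1 to 3 counts a ratio with its 95% counting interval is given, and where it had 0 a bound against 3 counts. The test was run on simulated data with 200 changed genes. All 10 members are named, but not each in every type, and the age test covers only those past the gene filter. From the lists, the text names only some of the 2 most abundant genes of a list in a type, so they do not stand for the lists. It also names 5 genes (Smad6, Cavin2, Klf2, Smurf1 and Msx1) chosen after their values were seen for an unadjusted p under 0.05. For likeness it names all or some of the 3 genes nearest to a member, the first alone for some. For Eng it passes over Fgd5 (0.829), which was nearer than Tek. The set-aside clusters and shared barcodes were added as alternatives after the data were seen. The members, lists and tests were chosen with earlier results of these data known. Tools were Python 3.11.15, numpy 2.4.6, pandas 2.3.3, scipy 1.17.1, scikit-learn 1.9.0 and matplotlib 3.10.9.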

Additional observations from a re-analysis of the deposited data

Results flagged for a closer look

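In 3 of 32 checked sets of 4 old libraries, 1 library stood apart from the others, where chance flags about 1 set in 20. Cav1 in FBs was at 26.4 CPM in the 20 month mouse and at 41.7 to 44.7 CPM in the other 3 old mice. Eng in SMCs was at 0.0 CPM in the 24 month mouse and at 27.1 to 31.7 CPM in the others, and Acvrl1 in SMCs was at 0.0 CPM in the same mouse and at 33.3 to 39.7 CPM in the others. That mouse had 10 SMCs with 8428 UMIs, in which 3 counts would make more than these levels.

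For Bmpr2 and Cav1 every old library lay above both young libraries in one cell type and below them in another. Bmpr2 was higher in old perivascular MΦs (old mean 104.0 CPM) and lower in old SMCs (old mean 148.0 CPM). Cav1 was higher in old FBs (old mean 39.39 CPM) and lower in old SMCs (old mean 405.1 CPM) and old ECs (old mean 1001.0 CPM). Among all genes tested, 12.7% were apart with old higher in perivascular MΦs and 16.9% in FBs. With old lower, 8.38% were apart in SMCs and 7.9% in ECs. Genes apart in opposite directions between cell types were not counted over all genes. The difference between cell types was not tested in either gene, and no member passed the adjusted threshold within a type. With DESeq2 the fitted differences of Bmpr2 (0.967) and Cav1 (0.857) in SMCs and of Cav1 (0.225) in ECs were above 0. Cav1 in FBs was under the level of free RNA, whose part in it was not tested. The nearest libraries of Bmpr2 in perivascular MΦs stood at 60.6 CPM (20 months) and 59.7 CPM (young male).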

How the results depend on the processing

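The young libraries set the limit, with 45892 UMIs in young SMCs, 100405 in young ECs and 100920 in young FBs, and intervals and floors cover counting error only. In 534 member differences with an adjusted p, over all alternatives, 0 were under 0.05, and the lowest was 0.0512. Direction held in 251 of 288 member differences under other settings and in 178 of 207 with a library left out. The side of the threshold is unknown for the 16 differences that DESeq2 gave without an adjusted p. The cause of the turns below was not tested. No paired analysis was possible because the labels give no replicate numbers that pair young with old mice.

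Genes called among all genes (3 in FBs, 8 in SMCs, 0 in ECs, 8 in perivascular MΦs and 0 in myeloid cells) moved by over 1.5 times with DESeq2 to 9 in FBs, 0 in SMCs and 5 in ECs. With no gene filter they were 20, 29, 7, 41 and 13, and with filterByExpr 0 in FBs, 5 in SMCs, 1 in perivascular MΦs and 1 in myeloid cells. With library size only they were 14 in SMCs and 4 in perivascular MΦs, and with doublets kept 4 in both. The covariate for barcode-sharing libraries gave 0 in FBs, 0 in SMCs and 2 in perivascular MΦs. Thinning to 500 UMIs gave 0, 1 and 0 in these types, and the filter of 1000 UMIs and 500 genes 0 in FBs and 0 in perivascular MΦs. That filter left too few young cells for a value in SMCs and ECs. Leaving out 1 library gave 0 to 8 in FBs (8 without 28 months), 0 to 25 in SMCs (25 without 20 months), 0 in ECs, 0 to 87 in perivascular MΦs (87 without 20 months) and 0 to 62 in myeloid cells (62 without 24 months).

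With DESeq2, whose median over all genes was 1.0 in FBs, 2.09 in SMCs and 0.886 in ECs, log2 fold changes turned in FBs for Acvrl1 (0.425), Smad1 (0.436) and Smad5 (0.552). In SMCs they turned for Bmpr2 (0.967), Bmpr1a (1.57), Smad1 (1.16), Smad5 (0.581), Id1 (1.23), Id3 (1.26) and Cav1 (0.857), and in ECs for Bmpr1a (0.308) and Cav1 (0.225). All 12 kept their sign relative to the median of all genes. With no gene filter the turned values were 0.00775 for Smad1 and 0.133 for Smad5 in FBs, and 0.414 for Bmpr1a, 0.0286 for Smad1, 0.124 for Id1 and 0.423 for Id3 in SMCs. FilterByExpr turned Id3 in SMCs (0.135) and Smad1 in perivascular MΦs (-0.0124), doublets kept turned Bmpr1a (0.0308) and Id3 (0.262) in SMCs, and library size only turned Id1 in FBs (-0.0118). The filter of 1000 UMIs and 500 genes turned Bmpr2 (-0.602), Acvrl1 (1.01) and Smad5 (9.88, with no young count) in FBs and Acvrl1 (-0.195) and Id3 (0.704) in myeloid cells. The covariate turned Smad1 in FBs (0.225), Acvrl1 in SMCs (-8.9), Id1 (-0.41) and Id3 (-0.567) in ECs, Acvrl1 (-6.46) and Smad1 (-1.23) in perivascular MΦs and Id3 in myeloid cells (0.286). Without barcodes held by 2 libraries Smad1 in perivascular MΦs was -0.00123, and with the set-aside subcluster -0.169.

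With each library left out in turn, these members changed sign. In FBs the ranges were -0.266 to 1.35 for Bmpr2, -1.08 to 0.247 for Acvrl1, -1.22 to 0.739 for Smad5, -0.643 to 0.491 for Id1 and -0.155 to 1.31 for Id3. In SMCs they were -0.435 to 0.337 for Bmpr1a, -1.15 to 0.16 for Smad1, -2.03 to 10.5 for Smad5 and -0.723 to 0.522 for Id3. In ECs they were -0.0225 to 0.411 for Bmpr2, -0.0614 to 0.42 for Acvrl1, -0.745 to 1.54 for Smad5, -0.479 to 0.784 for Id1 and -0.104 to 0.76 for Id3. In perivascular MΦs they were -0.359 to 8.43 for Smad1 and -0.902 to 10.6 for Id3, and in myeloid cells -2.25 to 4.57 for Bmpr1a and -0.0176 to 6.89 for Acvrl1. Of mean levels, 12 of 260 moved by over 1 SD under another cell filter. Leaving out 1 library cannot move a mean by over 1 SD of the libraries, so that check could not show a dependence of the levels. Of the shares of cells, 116 of 130 moved when all UMIs were used.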
